A study of Homo sapiens with 11 samples.

Results

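The genes of the cytosolic ribosomal proteins were followed in A375 melanoma cells through treatment with the MEK inhibitor trametinib and after its removal. Members were the protein-coding genes whose GENCODE 29 symbol starts with RPL or RPS and a number, or is RPLP0, RPLP1, RPLP2 or RPSA. The kinases of RPS6, the regulator RPS19BP1 and the Y-linked RPS4Y1 and RPS4Y2 were left out. The rule gave 88 of the 58721 genes in the table. Of these, 77 encode the canonical proteins of the ribosome (46 of the large and 31 of the small subunit), 8 are paralogs or related genes (RPS27L, RPL22L1, RPL39L, RPL26L1, RPL36AL, RPL3L, RPL10L and RPL7L1) and 3 are readthrough genes that join a member to its neighbour. The rule used names only and no measured value. The 3 readthrough genes (RPL17-C18orf32, RPL36A-HNRNPH2 and RPS10-NUDT3) had 0 counts in every library. Of their mRNA bases, 100, 100 and 99.8% are annotated on the same strand for other genes as well. Reads in such bases can be left uncounted, so 0 counts do not show that these genes were silent. The other 85 members passed the filter on low counts, among 23693 genes tested.

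Libraries were made from poly(A) RNA of A375, a long-established human melanoma line whose growth is driven by mutant BRAF, upstream of the MEK kinases. All cells carried the genotype given as WT in the labels. Withdrawn cells (5 libraries) were persister cells that had then spent 4 weeks with no drug, persister cells (5 libraries) had received 2 nM trametinib over 8 weeks, and parental cells (1 library) were untreated. The name of a withdrawn library gives the number of the persister culture it came from. The labels do not state that these cultures arose independently, and the p-values therefore cover the spread of the libraries, part of which may be technical. With 1 library, the parental group gives no estimate of spread, and the fit assumes for it the spread of the treated libraries. Of 12 markers of the melanocyte lineage, 11 averaged at least 1 CPM (counts of a gene scaled to a common total by the TMM method) and TYR was below that, with summed levels of 1696 to 1768 CPM in withdrawn, 589 to 1164 CPM in persister and 1372 CPM in parental libraries. Summed markers of fibroblasts stood at 8.22 to 11.5 CPM in withdrawn, 39.0 to 312 CPM in persister and 7.79 CPM in parental libraries; their part in the results was not tested.

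A ribosome needs nearly all of its proteins in equal numbers, and cells usually make their mRNAs together. Most of these mRNAs begin with a C followed by a run of pyrimidines, the 5′ terminal oligopyrimidine (TOP) motif, through which mTORC1 and the RNA-binding protein LARP1 set how well they are translated. MEK and ERK signalling acts on the same machinery through kinases of RPS6 and through transcription of ribosome biogenesis genes. The values here are mRNA levels and carry no measure of translation. They are also relative: less of a member per cell and fewer cells that express it cannot be told apart, and the total RNA per cell was not measured.

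The annotated starts of the members the results turn on are shown first. No annotated start of the paralogs RPS27L, RPL26L1 and RPL36AL was a C followed by at least 4 pyrimidines. Their partners had such a start, as did both RPL22L1 and RPL22. The start of RPL36AL lies inside a stretch of pyrimidines, but only CCT of that stretch lies in the transcript. RefSeq (GRCh38.p14) lists a promoter window for 70 of the 88 members, with 87 annotated starts. A C at the start followed by at least 4 pyrimidines was present at 48 of these 87 starts (55.2%), against 1429 of the 35116 starts of all genes in the table (4.07%). It was found for 46 of 62 canonical members with an entry and for 1 of 6 paralogs, RPL22L1. The sequences below run 5′ to 3′ on the strand of the gene, from 20 bases before the start to the first 20 bases of the transcript, and capitals mark the pyrimidine run where it begins at the start. RPL26L1 has another annotated start, which is not shown.
RPS27L (chr15:63157458-63157497, minus strand): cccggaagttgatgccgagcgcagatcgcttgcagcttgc
RPS27 (chr1:153990742-153990781, plus strand): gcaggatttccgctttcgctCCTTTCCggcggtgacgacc
RPL26L1 (chr5:172958709-172958748, plus strand): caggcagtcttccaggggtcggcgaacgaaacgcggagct
RPL26 (chr17:8383174-8383213, minus strand): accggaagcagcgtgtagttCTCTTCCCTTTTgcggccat
RPL36AL (chr14:49620607-49620646, minus strand): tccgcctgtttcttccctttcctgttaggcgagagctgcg
RPL36A (chrX:101390991-101391030, plus strand): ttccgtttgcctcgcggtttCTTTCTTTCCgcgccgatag
RPL22L1 (chr3:170870176-170870215, minus strand): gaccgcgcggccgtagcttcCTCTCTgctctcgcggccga
RPL22 (chr1:6199576-6199615, minus strand): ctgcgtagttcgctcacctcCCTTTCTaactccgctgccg
RPS21 (chr20:62387083-62387122, plus strand): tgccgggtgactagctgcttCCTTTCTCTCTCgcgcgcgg
RPL36 (chr19:5690275-5690314, plus strand): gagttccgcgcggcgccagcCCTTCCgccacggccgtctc
RPS28 (chr19:8321476-8321515, plus strand): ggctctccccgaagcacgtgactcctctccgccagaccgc
RPL12 (chr9:127451387-127451426, minus strand): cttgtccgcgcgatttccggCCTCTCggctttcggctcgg
RPS3A (chr4:151099608-151099647, plus strand): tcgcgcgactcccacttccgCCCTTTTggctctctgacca
RPS26 (chr12:56041898-56041937, plus strand): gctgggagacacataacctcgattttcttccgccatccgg

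In the wider window, from 250 bases before to 50 after the start, the letters CCGGAAG, the core bound by ETS factors such as the ERK targets ELK1 and ETS1, occurred on either strand at 32.2% of member starts, against 10.3% of all starts. CACGTG, the E-box bound by MYC, occurred at 5.75% of member starts and 7.26% of all starts, AAGATGG, the core of the YY1 site, at 10.3% and 5.84%, and TATAAA at 9.20% and 11.5%. Each motif was searched on both strands and counted without regard to overlap with the others. A match is a description of the letters and not of a factor at work.

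The members took up a larger part of the RNA in treated cells than in the parental library. They held 6.80 ± 0.27% of all counts in withdrawn libraries and 6.21 ± 0.65% in persister libraries (SD, n = 5 each), against 5.38% in the parental library. The withdrawn libraries lay between 6.45% and 7.20%, all above the parental library. The persister libraries stood at 7.00, 5.38, 6.70, 6.17 and 5.81% in persister 1 to 5, so that persister 2 was level with the parental library and the others lay above it. Counts in the 1133 pseudogenes named after members, which can take reads from them, made up 0.740, 0.666 and 0.572% in withdrawn, persister and parental libraries on average, the same order. Mitochondrial genes took 3.55 ± 0.23% in withdrawn, 6.81 ± 2.26% in persister and 2.96% in parental libraries, and with these counts left out of the total the members held 7.05, 6.67 and 5.54%.

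**Figure D1:**
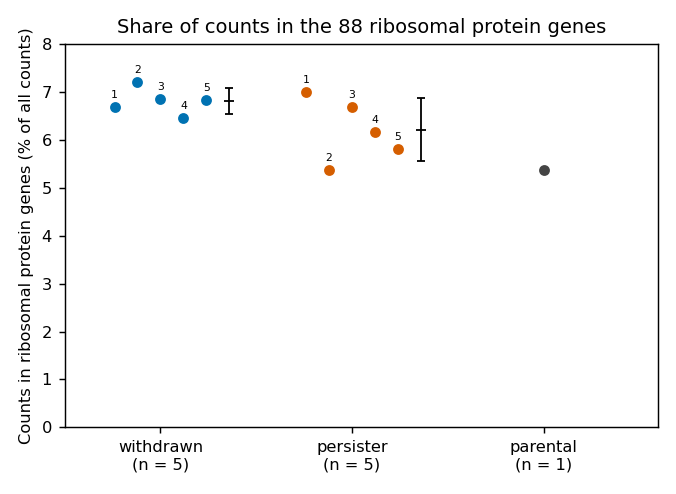
Share of all counts that fell in the 88 ribosomal protein genes (vertical axis, percent), 1 point a library, numbered by culture, with the mean and SD (n = 5) beside the withdrawn and persister points. All 5 withdrawn libraries lie above the parental library at 5.38%, and persister 2 is level with it.

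In persister cells, set against parental cells to ask what the long drug treatment left changed, 14 members were higher and 4 lower of 85 (21.2%), below the 31.2% of all genes called (16.1% higher and 15.1% lower; edgeR's quasi-likelihood test, Benjamini-Hochberg adjusted p under a threshold of 0.05). The 14 were 8 canonical proteins of the large subunit (RPL13, RPL26, RPL28, RPL34, RPL36, RPL37, RPL38 and RPLP1), 3 of the small subunit (RPS20, RPS21 and RPS28) and the paralogs RPS27L, RPL36AL and RPL39L. The lower members included RPL36A, RPL7L1 and RPL10L. The members' median log2 fold change was 0.29, beside 0.09 over all genes tested, and 72 of the 77 canonical members had a positive value. This median stayed positive under 4 other scalings of the libraries (0.21 to 0.29) and came to 0.00 only where the canonical members themselves set the scale. Of the 77, 46 stood above the parental library in all 5 persister libraries, where 32.7% of all genes did.

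RPS27L, a paralog of RPS27 known as a target of p53, changed most among members above 1 CPM. It stood at 82.2, 75.0, 78.5, 87.0 and 71.5 CPM in withdrawn libraries 1 to 5, at 236, 194, 188, 158 and 177 CPM in persister libraries 1 to 5, and at 60.8 CPM in the parental library. The persister values did not overlap those of the other cells. The gene (chromosome 15, 63125872 to 63158021, minus strand, GRCh38) rose 3.13-fold in persister over parental cells (log2 fold change 1.65 ± 0.21 (SE), adjusted p = 0.000221) and was 2.42-fold lower in withdrawn than in persister cells (-1.27 ± 0.11, adjusted p = 2.83e-06, edgeR). Neither call was lost under any alternative setting tried.

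RPS28, a small-subunit protein near the exit of the mRNA channel, had the highest log2 fold change of the canonical members in persister over parental cells. It had 130, 137, 134, 131 and 133 CPM in withdrawn libraries, 220, 169, 186, 153 and 177 CPM in persister libraries and 104 CPM in the parental library. All persister libraries lay above all others. Its log2 fold change was 0.80 ± 0.17 (SE) in persister over parental cells (edgeR adjusted p = 0.00487) and -0.44 ± 0.09 in withdrawn over persister cells (adjusted p = 0.0019). RPL36, of the large subunit, had the same order of groups, with 373 ± 21.8 CPM in withdrawn and 479 ± 62.7 CPM in persister libraries (SD, n = 5 each) and 292 CPM in the parental library. It rose by 0.72 ± 0.18 on the log2 scale in persister cells (adjusted p = 0.0108) and fell by 0.36 ± 0.10 in withdrawn cells relative to persister cells (adjusted p = 0.00866). RPS20 also followed this course, at 0.62 ± 0.18 (adjusted p = 0.0224) and -0.35 ± 0.10 (adjusted p = 0.0119). RPS21, of the small subunit, rose by 0.78 ± 0.20 in persister cells (adjusted p = 0.0121), and its difference between withdrawn and persister cells did not pass the test (-0.20 ± 0.11, adjusted p = 0.135).

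The parental library alone stands for its group, and in a fit of persister and parental libraries only, 1 member was higher (RPS27L) and 1 lower, where 11.3% of all genes were called. Of the 14 higher members, 8 kept their call when any 1 library was left out (RPL13, RPL36, RPL36AL, RPL38, RPS20, RPS21, RPS27L and RPS28) and 6 lost it in some such fit. The number of higher members ranged from 8 (without withdrawn 1, 3 or 5) to 25 (without persister 5), and was 24 without persister 2 and 9 without withdrawn 2.

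**Figure D2:**
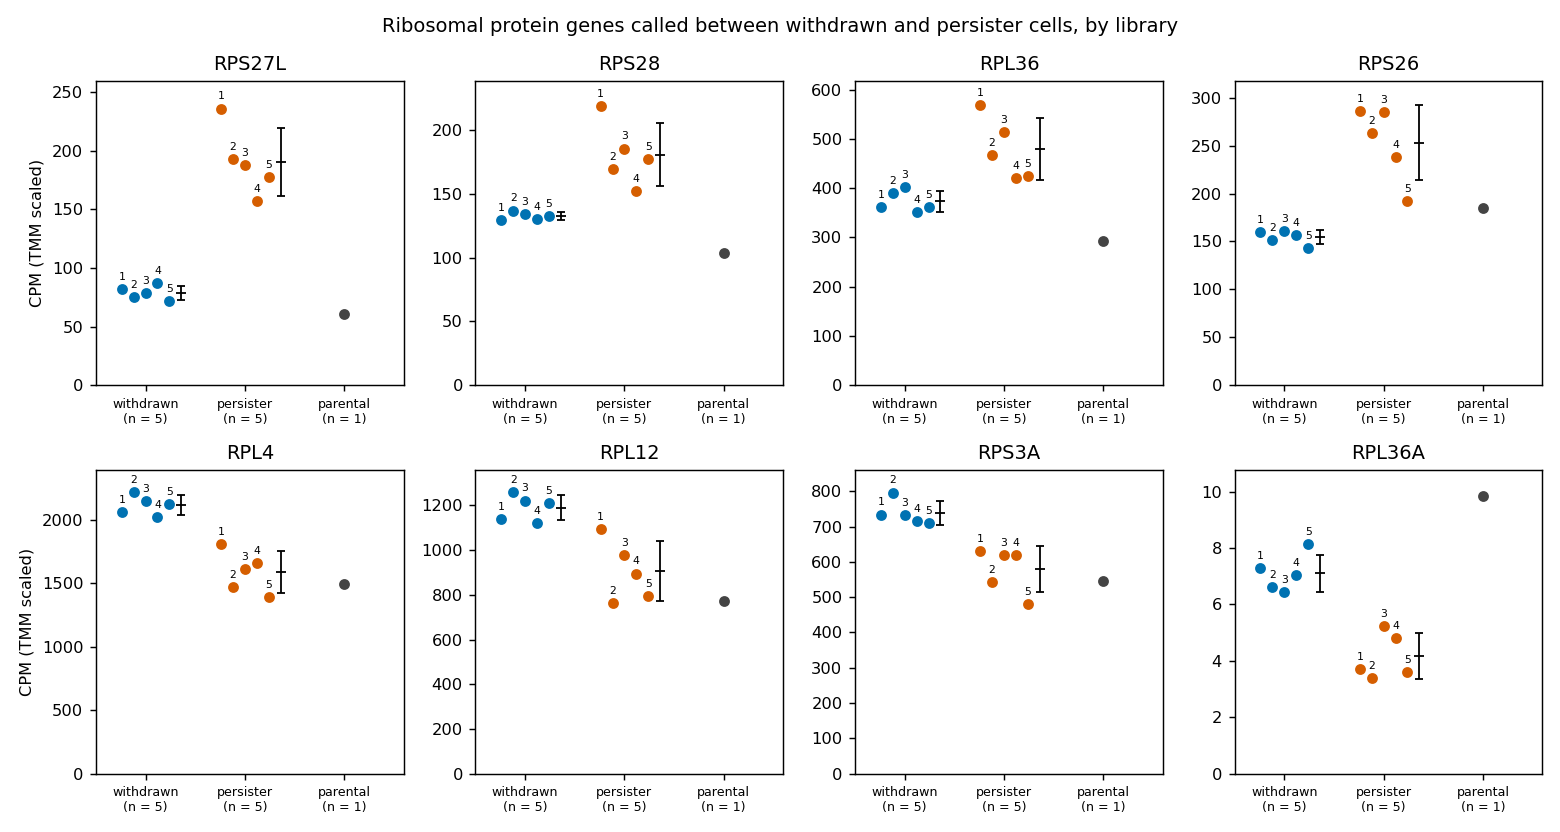
CPM of 8 members in each library (vertical axis, from 0), numbered by culture, with mean and SD (n = 5) beside the points. RPS27L, RPS28, RPL36 and RPS26 were lower in withdrawn than in persister cells, and RPL4, RPL12, RPS3A and RPL36A were higher, without overlap of these groups in any panel.

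After the drug was removed, the members split by direction. Of 85 members, 10 were higher and 8 lower in withdrawn than in persister cells (21.2%), below the 52.5% of all genes called (24.5% higher and 28.0% lower). The higher members included RPL4, RPL12, RPLP0, RPL36A, RPS3, RPS3A, RPS25, RPL3L and RPL10L, and lower were RPS20, RPS26, RPS27A, RPS28, RPL36, RPS27L, RPL26L1 and RPL36AL. The median log2 fold change was 0.08 over the members and -0.03 over all genes. In 16 of 85 members (10 higher, 6 lower) the withdrawn and persister libraries did not overlap, a smaller part than the 40.6% of all genes (20.3% higher and 20.3% lower).

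RPL4, a core protein of the large subunit, had 2063, 2216, 2148, 2019 and 2124 CPM in withdrawn libraries, 1810, 1470, 1609, 1657 and 1392 CPM in persister libraries and 1492 CPM in the parental library. Every withdrawn library lay above every persister library. Its log2 fold change in withdrawn over persister cells was 0.41 ± 0.09 (SE, edgeR adjusted p = 0.00233). RPL12, which sits at the base of the stalk that recruits elongation factors, followed at 0.39 ± 0.11 (adjusted p = 0.00817), and RPS3A at 0.35 ± 0.09 (adjusted p = 0.00724). RPLP0, the protein that anchors the stalk, was 0.32 ± 0.12 higher (adjusted p = 0.0416), and its partners RPLP1 (-0.20 ± 0.10, adjusted p = 0.115) and RPLP2 (-0.02 ± 0.11, adjusted p = 0.894) did not pass the test. RPS3, at the entry of the mRNA channel, was 0.35 ± 0.12 higher (adjusted p = 0.0254) and RPS25 0.28 ± 0.09 higher (adjusted p = 0.0196).

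With same-numbered cultures paired in the fit, where 54.1% of all genes were called, 4 members lost their call: RPLP0 (adjusted p = 0.0628, 0.00887 to 0.104 over all alternatives), RPS3 (0.057, range 0.00825 to 0.0863), RPS25 (0.0725, range 0.00654 to 0.0725) and RPS27A (0.0786, range 0.00457 to 0.101), all from edgeR. RPS3 and RPS25 lie on chromosome 11, whose members were high in withdrawn 2. Without withdrawn 2 their log2 fold changes were 0.28 (adjusted p = 0.0863) and 0.23 (adjusted p = 0.068). RPS3 also lost its call without withdrawn 1, 3 or 5, RPL3L without withdrawn 4 (adjusted p = 0.0508), RPLP0 without each of 8 of the 10 treated libraries and RPS27A without each of 9.

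RPS26 was the canonical member with the largest fall. This protein of the small subunit contacts the mRNA at the exit channel and can be added or removed by the chaperone TSR2. RPS26 had 160, 152, 161, 157 and 143 CPM in withdrawn libraries, 286, 263, 286, 238 and 193 CPM in persister libraries and 185 CPM in the parental library. The withdrawn libraries lay below all others, the parental library included. The log2 fold change in withdrawn over persister cells was -0.71 ± 0.11 (SE, edgeR adjusted p = 0.000198), and no alternative ended this call. In persister over parental cells it was 0.46 ± 0.19 (adjusted p = 0.0917) and in withdrawn over parental cells -0.25 ± 0.18 (adjusted p = 0.548), neither past the threshold. The log2 fold changes of TSR2 itself were 0.58 ± 0.19 in persister over parental cells (adjusted p = 0.0377) and -0.65 ± 0.11 in withdrawn over persister cells (adjusted p = 0.000326). The annotation holds 30 pseudogenes named after RPS26, and reads they share with it leave its counts uncertain. The same limit holds for other members, such as RPL12 with 50, RPS3A with 38, RPL5 with 35 and RPSA with 74.

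In withdrawn cells set against parental cells, 0 of 85 members were called, where 0.431% of all genes were (0.312% higher and 0.118% lower, edgeR). At an unadjusted p under 0.05 there were 29, the lowest adjusted p was 0.16, and DESeq2's own test called 4 higher (RPL12, RPL13, RPL37 and RPL4), where it called 6.23% of all genes. The values themselves lay on one side: 73 of the 77 canonical members stood above the parental library in all 5 withdrawn libraries, where 33.0% of all genes did. The other 4, RPL17, RPL36A and RPS26 among them, stood below it in all 5, as did 30.8% of all genes. The median log2 fold change was 0.36 over the members and 0.05 over all genes. In a fit of these 6 libraries only, where the spread comes from the withdrawn libraries alone, 66 members were higher and 5 lower, and 30.5% of all genes were called. A single parental library underlies all of these, and a difference of that library cannot be told apart from a difference of the withdrawn cells.

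Scaling the libraries on the canonical members in place of all genes shows which members departed from the rest. This scaling moved the median log2 fold change of all genes to -0.18, -0.10 and -0.29 in the comparisons of persister with parental, withdrawn with persister and withdrawn with parental cells. Relative to the other members, persister cells then had 3 higher (RPS27L, RPS28 and RPS21) and 4 lower (RPL10L, RPL36A and RPL7L1 among them) than parental cells, with 29.3% of all genes called. In withdrawn over persister cells 10 were higher and 14 lower, with 48.5% of all genes called. The 14 were the 8 named before and RPS15, RPS19, RPS21, RPL35A, RPL38 and RPLP1, and the same 10 members were higher as before. In withdrawn over parental cells 0 were called in either direction by edgeR, with 1.54% of all genes called. RPS27L stood at 1.37 (adjusted p = 0.000721) and -1.33 (adjusted p = 2.07e-06) on this scale, and RPS26 at -0.77 in withdrawn over persister cells (adjusted p = 6.97e-05).

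The canonical members' change in persister cells was larger for those with short coding sequences. Split by length into 27 members up to 405 bases, 24 up to 572 bases and 26 above, the median log2 fold change in persister over parental cells was 0.43, 0.31 and 0.17, and Spearman's rho with coding length was -0.54 over the 77. Of the 11 canonical members that rose, 8 were in the shortest class, 29.6% of that class, beside 33.9% of the other protein-coding genes of that length. In withdrawn over persister cells the medians were -0.03, 0.05 and 0.15 and rho was 0.52. Against parental cells, rho within single libraries ranged from -0.53 to -0.36 in persister and from -0.11 to -0.02 in withdrawn cells, so the 2 ranges did not overlap. In withdrawn over parental cells pooled, rho was -0.07.

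Length went with the change in other genes too. Over 15248 other protein-coding genes, the same classes had median log2 fold changes of 0.55, 0.38 and 0.01 in persister over parental cells and -0.43, -0.28 and -0.00 in withdrawn over persister cells, with rho of -0.19 and 0.17. These correlations run across genes that share the same libraries, and genes are not independent replicates. The part of length in the members' changes was not tested.

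**Figure D3:**
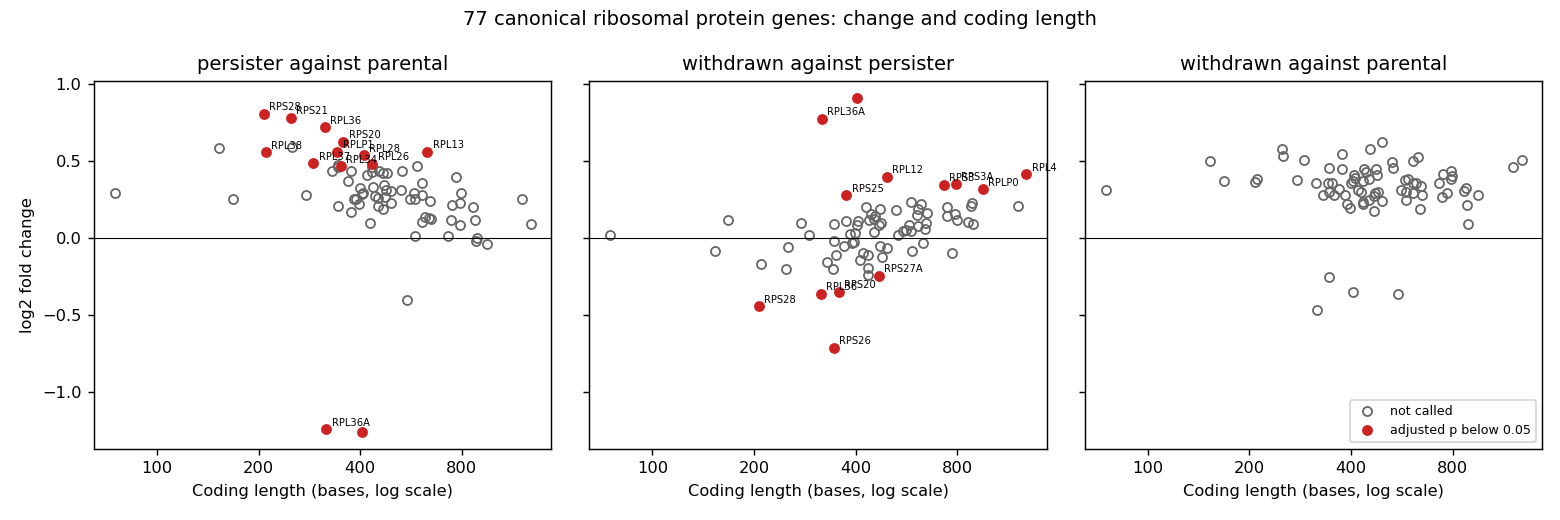
Log2 fold change (vertical axis) against coding length in bases (horizontal axis, log scale) for the 77 canonical members in 3 comparisons; filled points passed an adjusted p of 0.05. Values fall with length in persister against parental cells (rho -0.54), rise with it in withdrawn against persister cells (rho 0.52) and show little slope in withdrawn against parental cells (rho -0.07).

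The paralogs were also measured against their partners within each library, which needs no scaling between libraries. RPS27L counts were 9.67 ± 1.09% of RPS27 counts in withdrawn, 22.9 ± 5.14% in persister (SD, n = 5 each) and 10.8% in parental cells. The persister libraries ranged from 18.6% to 31.6% and the withdrawn libraries from 8.48% to 11.2%, without overlap. Persister 2 had the highest ratio, and RPS27 itself was low there (log2 difference of -0.55 from the median of the other 4 persister libraries). The exact two-sided permutation test of withdrawn against persister libraries gave p = 0.00794, the smallest that 5 against 5 allow, or 0.0185 adjusted over the 7 pairs compared. RPL26L1, which encodes a close copy of RPL26, stood at 23.7 ± 1.37% of RPL26 in withdrawn, 29.9 ± 5.19% in persister and 29.1% in parental cells. Persister 1 to 5 had 27.6, 39.0, 28.8, 26.3 and 27.7%, so that only persister 2 lay above the parental library. Between withdrawn and persister libraries the adjusted p was 0.0185 (exact permutation test). Of the mRNA bases of RPL26, 65.3% are annotated on the same strand for another gene as well. The part of these shared bases in the ratio was not tested. RPL36AL, a copy of RPL36A, had 1620 ± 172% of its counts in withdrawn, 3626 ± 878% in persister and 907% in parental cells. The adjusted p was 0.0185 (exact permutation test), with RPL36A itself at low counts and 77.6% of its mRNA bases shared in the same way. RPL3L stood at 0.0194 ± 0.00485, 0.0123 ± 0.00393 and 0.0225% of RPL3 in withdrawn, persister and parental cells (adjusted p = 0.0556). For RPS27L, RPL26L1 and RPL36AL, all 5 cultures changed in the same direction, and with cultures paired the exact permutation p was 0.0625, the smallest that 5 pairs allow.

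RPL22L1, the paralog of RPL22, had 1 persister library apart from the rest. It stood at 42.3 to 45.8% of RPL22 in withdrawn cells, at 35.9, 82.1, 38.3, 40.6 and 30.5% in persister 1 to 5, and at 53.3% in parental cells. Persister 2 alone lay above the parental library. RPL22 itself was low in persister 2 (log2 difference of -0.51 from the median of the other 4 persister libraries). The ratio differed by more than this, so RPL22L1 itself was also higher there. The log2 fold change of RPL22L1 in withdrawn over persister cells was 0.21 without persister 2, the highest of all alternatives (lowest -0.06). The difference in the ratio between withdrawn and persister cells did not pass the exact permutation test (log2 difference 0.05, adjusted p = 0.913). Without persister 2 it was 0.29 (adjusted p = 0.0139). RPL39L, a copy of RPL39 best known from male germ cells, likewise stood at 3.42% of RPL39 in persister 2, with 0.570 to 1.72% over the remaining persister libraries. Its ratio was 0.943 to 1.22% in withdrawn and 0.759% in parental cells (exact permutation test, adjusted p = 0.602). RPL39 itself was low in persister 2 (log2 difference of -1.03 from the median of the other 4 persister libraries). The ratio differed by more than this from the middle of those libraries, so RPL39L itself was also above their middle. RPL7L1, an RPL7-like gene, was 34.7 ± 0.76% of RPL7 in withdrawn, 31.1 ± 4.26% in persister and 50.2% in parental cells (adjusted p = 0.167, or 0.0139 without persister 2). RPL7L1 was lower in persister than in parental cells in the fit of all genes (log2 fold change -0.57 ± 0.20, edgeR adjusted p = 0.0475), a call that was lost without 8 of the 10 treated libraries when each was left out in turn.

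**Figure D4:**
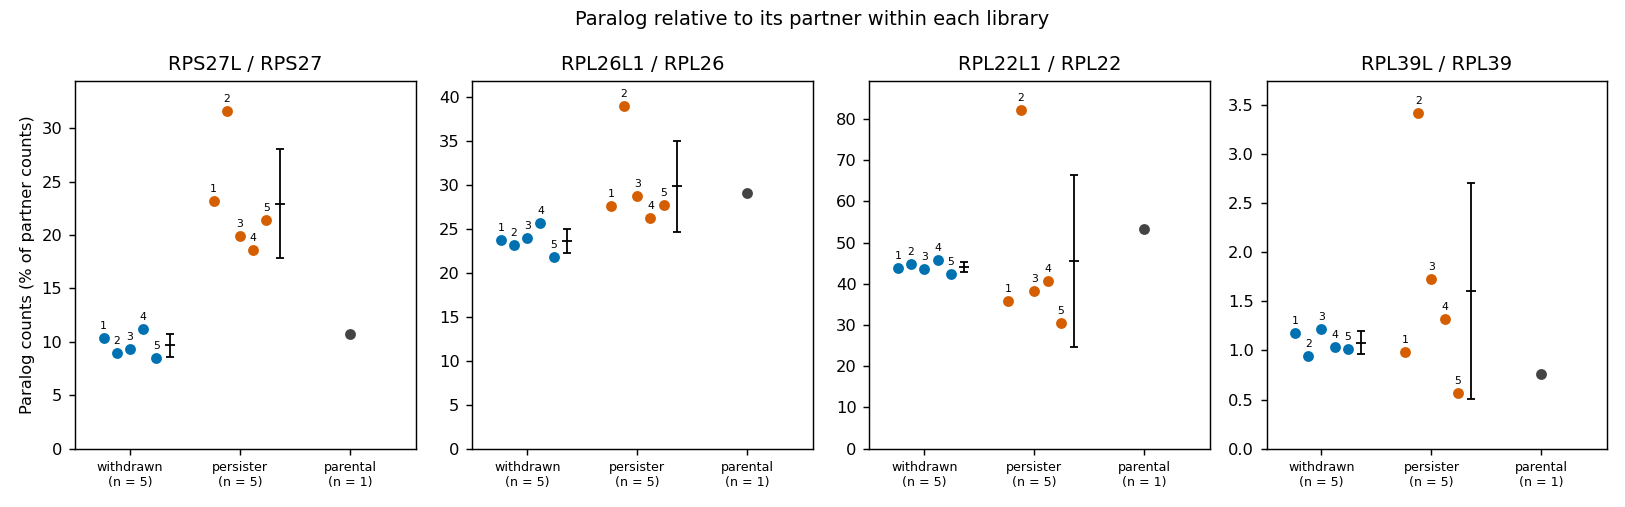
Counts of 4 paralogs as a percentage of the counts of their partner (vertical axis, from 0) in each library, numbered by culture, with mean and SD (n = 5). RPS27L against RPS27 separates persister from withdrawn libraries without overlap, and persister 2 is the highest library in all 4 panels. In persister 2, all 4 partners themselves lay below the median of the other persister libraries. For RPL22L1 and RPL39L the ratio differed by more than the partner did.

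Paralogs with few counts are given as counts. RPL10L, an intronless copy of RPL10 best known from the testis, had 49, 56, 37, 37 and 41 counts in withdrawn libraries, 1, 1, 4, 4 and 0 in persister libraries and 19 in the parental library. Every withdrawn library exceeded every persister library. Pooled and set to library size, withdrawn cells had 23.04 times the persister level (95% counting interval 12.3 to 48.7), and persister cells had 0.0963 times the parental level (0.0400 to 0.218); these intervals cover counting error only. RPL3L, the form of RPL3 made in heart and skeletal muscle, had 19 to 37 counts in withdrawn libraries, 12 to 18 in persister libraries and 23 in the parental library. Its log2 fold change in withdrawn over persister cells was 0.89 ± 0.28 (SE, edgeR adjusted p = 0.0182).

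RPL36A, of the large subunit, moved against most canonical members, at low counts. RPL36A had 7.29, 6.62, 6.45, 7.02 and 8.13 CPM in withdrawn libraries, 3.72, 3.39, 5.23, 4.82 and 3.62 CPM in persister libraries and 9.84 CPM in the parental library. The withdrawn libraries lay above the persister libraries and below the parental library without overlap. RPL36A fell in persister cells by 1.24 ± 0.24 on the log2 scale (SE, edgeR adjusted p = 0.00252) and was 0.77 ± 0.15 higher in withdrawn than in persister cells (adjusted p = 0.00113). Of its mRNA bases, 77.6% are annotated on the same strand for another gene as well. The same holds for RPL17 (91.0%) and RPS10 (84.0%), which averaged 8.15 ± 0.45 and 24.3 ± 0.69 CPM in withdrawn cells, 7.91 ± 1.71 and 25.5 ± 3.08 CPM in persister cells (SD, n = 5 each) and 10.5 and 20.7 CPM in parental cells. In the fit of all libraries RPL17 and RPS10 were called in no comparison, and with only withdrawn and parental libraries fitted RPL17 was lower in withdrawn cells (edgeR adjusted p = 0.0353). Reads in shared bases can be left uncounted, the way they were handled is not given in the sources used here, and their part in these values was not tested.

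Compared between genes per kilobase of mRNA and averaged over the libraries, RPL39 (2524 CPM per kilobase), RPS27 (2254) and RPS24 (2221) had the highest levels, and RPL17 (12.3), RPL10L (0.423) and RPL3L (0.147) the lowest. RPL36A stood at 14.0 and RPL39L at 18.8 CPM per kilobase. The ranking depends on the annotated transcript taken for each gene. That of RPL37 has 7686 bases (291 coding), of RPL27A 4916 (444 coding) and of RPL37A 3647 (276 coding). Such lengths lower the levels per kilobase of these members. The levels of RPL17 and RPL36A are thus far below those of proteins with which they share the ribosome, beside the shared bases named above.

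The persister cultures differed from each other more than the withdrawn ones. The coefficient of variation of a canonical member across libraries had a median of 3.95% in withdrawn and 13.2% in persister cells, and was larger in persister cells for 75 of 77 members. It was lowest for RPS27A in withdrawn cells (1.63%) and highest for RPL39 in persister cells (26.2%).

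Persister 2 stood apart in members on 2 chromosomes. On the X chromosome, RPL39 differed by -1.03 on the log2 scale in persister 2 from the median of the other 4 persister libraries, RPS4X differed by -0.97 and RPL10 by -0.78. On chromosome 1, RPS27 differed by -0.55, RPL11 by -0.54 and RPL22 by -0.51, whereas RPL5 did not (0.03). Over the 68 canonical members elsewhere the median was -0.13. Other genes showed the same chromosomes: their median in persister 2 was -0.38 over 421 genes of the X chromosome, -0.22 over 1181 genes of chromosome 1 and 0.11 over 9837 genes elsewhere. In withdrawn 2, the library named after this culture, the medians of other genes were 0.01 on X and -0.03 on chromosome 1.

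Results for these members depended on persister 2. RPL39 had 1278, 587, 1250, 1107 and 1145 CPM in persister 1 to 5, beside 976 to 1080 CPM in withdrawn libraries and 716 CPM in the parental library. Apart from persister 2, each persister library lay above all withdrawn libraries. RPL39 was called in neither comparison with all libraries, and without persister 2 it was higher in persister than in parental cells (log2 fold change 0.74, edgeR adjusted p = 0.00224) and lower in withdrawn than in persister cells (-0.24, adjusted p = 0.0223). The adjusted p of these comparisons ranged from 0.00224 to 0.44 and from 0.0223 to 0.945 over all alternatives. RPL11, RPL22 and RPS27 were likewise called in persister over parental cells without persister 2, with log2 fold changes of 0.53, 0.34 and 0.69.

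Withdrawn 2 stood apart on chromosome 11. Its 5 members there lay above the median of the other withdrawn libraries, RPL27A by 0.41, RPLP2 by 0.35, RPS13 by 0.32, RPS3 by 0.26 and RPS25 by 0.18 on the log2 scale. The median over 639 other genes of the chromosome was 0.10 in withdrawn 2. The median of canonical members outside chromosomes 1 and X was 0.10 in withdrawn 2.

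**Figure D5:**
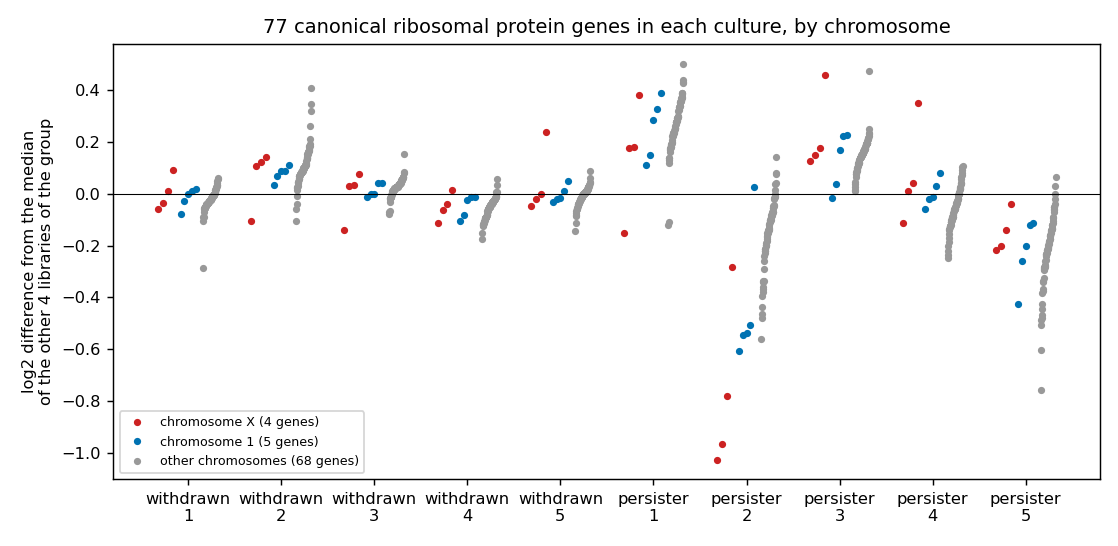
Log2 difference of each of the 77 canonical members from the median of the other 4 libraries of its group (vertical axis), by library, with members of chromosome X in red, of chromosome 1 in blue and of all others in grey. In persister 2, 3 of the 4 X-linked members lie between -1.03 and -0.78 and RPS27, RPL11 and RPL22 of chromosome 1 between -0.55 and -0.51.

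The 5S particle, RPL5 and RPL11, which binds MDM2 when ribosome assembly is disturbed, was called in no comparison with all libraries. RPL5 averaged 672 ± 19.99 CPM in withdrawn and 631 ± 86.4 CPM in persister cells (SD, n = 5 each), with 631 CPM in parental cells, and RPL11 1135 ± 39.5 and 1119 ± 222 CPM, with 830 CPM in parental cells. RPS6, whose phosphorylation is a common readout of S6 kinase activity, averaged 2993 ± 166, 2603 ± 285 and 2248 CPM in withdrawn, persister and parental cells. In the fit of all libraries RPS6 was called in no comparison, and with only withdrawn and parental libraries fitted it was higher in withdrawn cells (edgeR adjusted p = 0.00315). Between withdrawn and persister cells its adjusted p ranged from 0.0346 (by total counts) to 0.244 over the alternatives, and was 0.0463 without persister 1. RPSA, of the small subunit and also known as a laminin receptor, was called in no comparison in the fit of all libraries (1641 ± 69.2, 1400 ± 277 and 1417 CPM). Kinases of RPS6 were left out of the members by the rule. RPS6KA3, which encodes the ERK-activated kinase RSK2, averaged 414 ± 41.2 CPM in withdrawn, 48.4 ± 11.7 CPM in persister and 531 CPM in parental cells (log2 fold changes of -3.46 ± 0.22 in persister over parental and 3.10 ± 0.17 in withdrawn over persister cells, adjusted p = 1.85e-06 and 1.12e-07). Of the 10 such kinase genes tested, 3 were lower in persister than in parental cells, and 4 were higher and 1 lower in withdrawn than in persister cells, shares close to the 31.2% and 52.5% of all genes.

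Genes that act with the ribosome were counted on lists in the same fit, in which 31.2% of all genes were called in persister over parental cells and 52.5% in withdrawn over persister cells. Of 82 ribosome assembly factors, 1 rose and 16 fell in persister cells (20.7% in either direction, below the share of all genes). By direction, 16 of 82 is a larger part than the 15.1% of all genes that were lower. The 1 that rose is a smaller part than the 16.1% that were higher. The median log2 fold change was -0.30 beside 0.09 over all genes. In withdrawn over persister cells 22 were higher and 12 lower (41.5%), beside 24.5% and 28.0% of all genes. NOC3L, needed for large-subunit assembly, had -1.22 ± 0.27 in persister over parental cells (adjusted p = 0.00524) and 1.18 ± 0.17 in withdrawn over persister cells (adjusted p = 0.000129), and WDR12 had -0.76 ± 0.14 and 0.67 ± 0.09 (adjusted p = 0.0025 and 7.26e-05). The assembly factors had a negative median under every scaling tried in persister over parental cells (-0.58 to -0.30), and also in withdrawn over parental cells (-0.67 to -0.33), where 0 of 82 were called by edgeR. Of 22 genes of RNA polymerase I and its factors, 3 rose and 4 fell in persister cells (31.8%, near the 31.2% of all genes), those that fell including POLR1B, its second largest subunit (-1.26 ± 0.17, adjusted p = 0.000311), which was 0.99 ± 0.11 higher in withdrawn than in persister cells (adjusted p = 1.68e-05). Of 22 genes of RNA polymerase III, 3 rose and 7 fell in persister cells (45.5%), those that fell including POLR3G (-1.51 ± 0.24, adjusted p = 0.000841).

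Few translation factors were called in persister cells. Of 36 initiation factors, 1 rose and 2 fell in persister cells (8.33%, beside 31.2% of all genes), and 11 were higher and 6 lower in withdrawn than in persister cells (47.2%, beside 52.5%), with EIF4B and EIF3E both 0.74 higher on the log2 scale (adjusted p = 8.42e-05 and 2.41e-05) and EIF6 at -1.10 ± 0.17 (adjusted p = 0.000287). Of 14 elongation factors and other TOP mRNAs, 2 rose in persister cells (14.3%): TPT1 by 0.64 ± 0.19 (adjusted p = 0.0254) and EEF1D by 0.55 ± 0.19 (adjusted p = 0.0457). Both were lower in withdrawn than in persister cells. FAU, which encodes a small-subunit protein fused to a ubiquitin-like protein, and RACK1 were called in no comparison in the fit of all libraries. For FAU in withdrawn over persister cells the log2 fold change was -0.30 ± 0.12 (edgeR adjusted p = 0.0517, or 0.0497 with same-numbered cultures paired, with a range of 0.00862 to 0.114 over all alternatives).

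Of 27 genes of mTORC1 and TOP mRNA control, 8 rose and 3 fell in persister cells (40.7%, beside 31.2% of all genes) and 6 were higher and 9 lower in withdrawn than in persister cells (55.6%, near the 52.5% of all genes). SESN2, a sensor that holds mTORC1 back, had 1.44 ± 0.18 and -1.14 ± 0.09 (adjusted p = 0.000206 and 2.47e-06). On the same list AKT1S1 had the same directions (0.61 ± 0.15 and -0.75 ± 0.08). DDIT4 had the opposite ones, at -0.45 ± 0.22 (not called) and 1.18 ± 0.13 (edgeR adjusted p = 2.39e-05). Of 14 chaperones and importers of ribosomal proteins, 2 rose (TSR2 and RPS19BP1) and 2 fell in persister cells, and 2 were higher and 2 lower in withdrawn than in persister cells (28.6% in each comparison, beside 31.2% and 52.5%). Of 19 genes of ribosome rescue, 4 rose and 5 fell in persister cells (47.4%, beside 31.2%). EDF1, which binds collided ribosomes, had 1.08 ± 0.20 and -0.91 ± 0.10 (adjusted p = 0.00193 and 2.41e-05), and LTN1, the ubiquitin ligase of stalled chains, -1.20 ± 0.15 and 0.75 ± 0.10 (adjusted p = 0.000227 and 6.38e-05). In withdrawn over parental cells, 1 gene on these lists was called, of RNA polymerase III.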

How the data were processed

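The authors deposited 1 table of whole-number read counts per gene, not normalized and with replicates not pooled. Per the submitters' processing notes, bcl2fastq, HISAT2 and HTSeq were used with hg38. Tool versions, counting mode and strand setting are stated nowhere in the sources used here, and reads shared by overlapping genes or close copies leave counts uncertain. All 58721 IDs matched GENCODE 29, which gave symbols, coordinates (GRCh38, 1-based) and coding lengths.

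Total counts ran from 56513920 to 82984566 per library, with 3040562 to 5121079 in the members. Genes were tested with edgeR 4.0.16 (R 4.3.3): filterByExpr (minimum count 10, minimum total 15), TMM, robust quasi-likelihood fits of all 11 libraries in 3 groups (8 residual degrees of freedom) and Benjamini-Hochberg adjustment over 23693 genes. The tests were tried on simulated data. CPM used TMM factors. Ratios of 2 members were compared by exact permutation in scipy 1.17.1. Alternatives used DESeq2 1.42.0 and limma 3.58.1.

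Members and lists were chosen with earlier results of these data known. Named members are those with the smallest adjusted p in each comparison, the extreme fold changes, the paralogs with their partners, the stalk, 5S and S6 kinase related proteins and the extreme levels. RPL27A, RPS4X, RPS10, RPS13, RPS15, RPS19 and RPL35A, and the members flagged below outside that rule, were named after their values were seen. Results of some genes are not reported here.

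Same-numbered libraries come from 1 culture by name. Their deviations from the group means correlated at 0.0484 to 0.0909 across genes, and in 5 of 5 pairs the same number gave the highest value; over the members alone the correlations ran from -0.465 to 0.41 and were negative in 4 of 5 pairs. Over pairs of libraries, chi-square per degree of freedom was 72.6 to 311 in persister and 7.77 to 22.4 in withdrawn cells, so no 2 libraries agreed within sampling noise.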

Additional observations from a re-analysis of the deposited data

Results flagged for a closer look

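Single libraries stood far from the other 4 of their group in 19 of 170 groups of 5 (85 members in withdrawn and persister cells, 11.2%). Chance gives about 1 in 20 for independent groups. The members share the same libraries and are not independent, so 11.2% cannot be judged against that rate. Of the 19, 16 were in withdrawn 2, all high. On chromosome 11 these were RPL27A (1145 CPM, others 837 to 881), RPLP2 (489.1, others 378 to 401), RPS13 (530.9, others 414 to 433), RPS25 (911.7, others 791 to 816) and RPS3 (1891 CPM, others 1526 to 1594). On other chromosomes they were RPL7 (689.5 CPM), RPL9 (1083 CPM), RPL22 (314.4 CPM), RPL23 (1112 CPM), RPL24 (844.1 CPM), RPL29 (645.0 CPM), RPL34 (328.1 CPM), RPS3A (796.4 CPM), RPS7 (868.6 CPM), RPS15A (214.6 CPM) and RPS20 (908.0 CPM). Withdrawn 2 also held the largest share of counts in members, at 7.20%.

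In persister 2, the X-linked RPL39 (587.1 CPM, others 1107 to 1278) and RPS4X (917.1 CPM, others 1629 to 1906) were low. In persister 5, RPL17 was low at 4.944 CPM, with the others between 7.97 and 9.20 CPM.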

How the results depend on the processing

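In persister over parental cells, 14 members were higher; the count was 3 with scaling on the members, 8 without a filter on low counts, 1 with only those groups fitted, and 8 to 25 with single libraries left out. The 4 lower members came to 1 with only those groups fitted. Relative to the other members, 3 were higher, with 1 without the filter and 1 to 6 with single libraries left out. In withdrawn over persister cells, 10 were higher, with 16 by total counts and 7 to 18 with single libraries left out, and 8 lower, with 14 by scaling on the members. Relative to the other members, 10 higher became 5 and 14 lower became 8 without the filter, and the lower count was 9 to 16 with single libraries left out. In withdrawn over parental cells, 0 higher became 66 with only those groups fitted and 4 with DESeq2's test, 0 lower became 5 with only those groups fitted, and relative to the other members 0 lower became 0 to 2 with single libraries left out. With pseudogenes added, the share of counts was 7.54% in withdrawn, 6.88% in persister and 5.95% in parental libraries, and without mitochondrial counts the parental share was 5.54%. With single libraries left out, the log2 difference of ratios in withdrawn minus persister cells ran from -0.0718 to 0.29 for RPL22L1, 0.56 to 0.85 for RPL3L and 0.12 to 0.24 for RPL7L1; RPL3L passed the exact permutation test without persister 2 (0.85) or withdrawn 3 (0.81). The cause was not tested. A fit of fewer groups has fewer degrees of freedom, and it takes its spread from those groups alone.

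With the replicate block, 7 members were higher and 7 lower in withdrawn than in persister cells. Beyond the 4 members named with the pairing and the ratios, the block changed no other call of a named member. No called value turned its direction. Over single members, 2382 values kept their side of the threshold, 65 gained and 115 lost it, and of the pathway list counts 953 stayed within 1.5 times and 145 did not.

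The depth of 3040562 to 5121079 counts in members per library leaves counting error small except for RPL10L and RPL3L. The parental group of 1 library limits both comparisons with it. mRNA levels cannot separate cell number from RNA per cell.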
